A study of Mus musculus with 6 samples.

Results

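The inflammasome and interleukin 1 genes are 10 of the 19938 genes measured on these arrays. They were taken by symbol, as the probe sets with exactly 1 gene symbol, and each is read by 1 probe set: Nlrp3, Nlrc4, Pycard, Casp1, Casp4, Gsdmd, Il1b, Il1a, Il18 and Il1rn. RNA came from conventional dendritic cells (cDC) of wild-type mouse spleen, sorted on the surface proteins CD24 and CD172a, and was hybridised to 6 Affymetrix arrays. The groups were CD24+CD172a+ cDC2, CD24-CD172a+ cDC2 and CD24+ cDC1, with 2 arrays each; no treatment is given in the labels, nor the animals' age. The labels leave unstated if replicate arrays stand for different animals, so the p-values measure the spread between these arrays, which may be technical. Very small amounts of total RNA were amplified with the WT Pico reagent kit.

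An inflammasome is a protein complex that assembles in the cytosol when a sensor such as NLRP3 or NLRC4 detects infection or damage. Through the adaptor ASC, the product of Pycard, it activates caspase 1, which cuts the precursors of interleukin 1 beta and interleukin 18 into their secreted forms and cuts gasdermin D, whose fragments open pores in the cell membrane. Caspase 11, the product of mouse Casp4, binds bacterial lipopolysaccharide and also cuts gasdermin D. RNA levels show how much of the machinery's message is present, not whether a complex has formed, since activation takes place in the proteins.

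Levels below are log2 array intensities with their SD (n = 2 arrays), differences are on the log2 scale with the standard error from limma, and a gene is called, and said to have risen or fallen, when its adjusted p over all genes is under 0.05. Intervals are 95% intervals for 1 gene, not adjusted for the number of genes. The arrays had median intensities of 29.5 to 30.6, and replicate arrays correlated at 0.992 to 0.993 across genes. Cell type markers followed the labels of cDC2 and cDC1: all 9 cDC1 markers measured were lower in CD24+CD172a+ cDC2 than in cDC1 and 8 of them were lower in CD24-CD172a+ cDC2, while 9 and 10 of 10 cDC2 markers were higher. Sirpa, which encodes CD172a, was at 10.01 and 10.27 on the CD24+CD172a+ cDC2 arrays, 10.18 and 10.20 on the CD24-CD172a+ cDC2 arrays, and 4.97 and 5.39 on the cDC1 arrays. Cd24a, which encodes CD24, read 10.94 and 10.82, 8.68 and 8.97, and 11.83 and 11.66 on the arrays in that order. The cDC1 marker Cd8a was higher by 2.11 in CD24+CD172a+ than in CD24-CD172a+ cDC2 (adjusted p = 0.000925 by limma). Cadm1, another cDC1 marker, was lower there, at -0.84 (adjusted p = 0.0407 by limma), and the other 7 of the 9 were not called. The median difference of the 9 was -0.06. Of all genes, 0.808% were higher and 0.652% lower in that comparison. In sorted bulk RNA, more cells that express a gene and more RNA per cell cannot be told apart. The comparisons share arrays and are not independent of each other: both comparisons with cDC1 use the same cDC1 arrays, and each cDC2 population enters 2 comparisons.

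The sequences around the start sites of 5 of the genes are printed because these genes show the different patterns that follow: Il1rn and Nlrc4 had the widest ranges over the 3 populations, Il1b was higher in both cDC2 populations, Casp4 was higher in CD24-CD172a+ cDC2 than in cDC1, and Il18 was lower in CD24+CD172a+ cDC2. Each runs from 250 bases before to 50 bases after a RefSeq start site in assembly GRCm38.p6, 5′ to 3′ on the gene's own strand. Capitals mark matches, on either strand, to the motif named beside each.
Il1rn, chr2:24336610-24336909, plus strand, AP-1 and NF-kappaB motifs in capitals: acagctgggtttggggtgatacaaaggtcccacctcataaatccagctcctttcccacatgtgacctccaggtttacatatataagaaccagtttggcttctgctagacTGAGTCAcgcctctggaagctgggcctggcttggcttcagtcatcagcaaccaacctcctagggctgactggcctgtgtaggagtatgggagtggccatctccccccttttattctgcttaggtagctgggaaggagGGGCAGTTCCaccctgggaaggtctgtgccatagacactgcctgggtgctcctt
Nlrc4, chr17:74459059-74459358, minus strand, PU.1 core motif in capitals: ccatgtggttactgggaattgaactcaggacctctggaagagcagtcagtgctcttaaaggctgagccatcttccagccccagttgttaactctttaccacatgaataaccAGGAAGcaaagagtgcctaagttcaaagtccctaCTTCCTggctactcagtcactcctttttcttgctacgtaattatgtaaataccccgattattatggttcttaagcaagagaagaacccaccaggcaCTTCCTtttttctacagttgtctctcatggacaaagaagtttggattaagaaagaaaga
Il1b, chr2:129371090-129371389, minus strand, TATA box in capitals: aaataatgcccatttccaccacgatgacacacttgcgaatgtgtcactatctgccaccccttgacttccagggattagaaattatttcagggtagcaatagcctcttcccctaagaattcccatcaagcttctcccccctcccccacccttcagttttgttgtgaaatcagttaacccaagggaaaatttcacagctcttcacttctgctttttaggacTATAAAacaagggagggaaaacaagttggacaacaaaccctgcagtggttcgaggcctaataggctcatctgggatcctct
Casp4, chr9:5308599-5308898, plus strand, NF-kappaB motif in capitals: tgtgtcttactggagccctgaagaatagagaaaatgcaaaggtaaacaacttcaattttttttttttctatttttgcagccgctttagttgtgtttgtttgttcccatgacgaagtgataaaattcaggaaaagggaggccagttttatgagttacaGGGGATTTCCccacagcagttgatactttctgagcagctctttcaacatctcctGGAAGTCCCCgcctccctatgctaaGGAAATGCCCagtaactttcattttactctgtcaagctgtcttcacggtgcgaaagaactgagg
Il18, chr9:50554450-50554749, plus strand, TATA box letters in capitals: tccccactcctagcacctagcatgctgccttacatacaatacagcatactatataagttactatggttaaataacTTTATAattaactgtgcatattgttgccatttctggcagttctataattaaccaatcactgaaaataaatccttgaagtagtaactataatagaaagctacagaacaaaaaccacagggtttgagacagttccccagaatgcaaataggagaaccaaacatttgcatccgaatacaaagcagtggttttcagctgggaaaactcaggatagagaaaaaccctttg

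The motifs searched were TGANTCA for AP-1, GGG and TTCC with any 3 bases between them for NF-kappaB, AGGAAG for the core of the PU.1 site, TATAAA for the TATA box and GAAA repeated after any 2 bases for the interferon response element, each on both strands. RefSeq gave 13 windows for 9 of the genes, and none for Gsdmd. Casp4 had 3 NF-kappaB matches in its printed window, the first bases of which lie 93, 39 and 14 bases before the start. Il1rn had an AP-1 match 141 bases and an NF-kappaB match 4 bases before its start. The NF-kappaB letters matched in 2 of the 9 genes, in 5 of their 13 windows, and in 5.56% of all 32851 windows. AP-1 letters matched in 2 of the 9 genes, in 2 of the 13 windows, and in 7.81% of all windows.
Nlrc4 had 3 PU.1 core matches, at 139, 105 and 9 bases before its start. PU.1 core letters stood in windows of 5 of the 9 genes and in 6 of the 13 windows, against 35.4% of all windows. The TATA box letters were in windows of 4 of the 9 genes and in 4 of the 13 windows, against 13.6% of all windows. In Il1b they lie 31 bases before the start, and in Il18 they lie 175 bases before it on the other strand. The interferon response element letters matched in 0 of the 9 genes, in 0 of the 13 windows, and in 3.44% of all windows. Several genes have more than 1 window and a gene with more windows has more chances of a match, so these shares are descriptions of letters and not of bound sites.

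Against CD24+ cDC1, the sensor genes Nlrp3 and Nlrc4, the protease gene Casp1, and Il1b and Il1rn were higher in both cDC2 populations. In CD24+CD172a+ cDC2, 5 of the 10 genes rose (Nlrp3, Nlrc4, Casp1, Il1b and Il1rn), 1 fell (Il18) and 4 were not called, where 7.11% of all genes rose and 6.52% fell. In CD24-CD172a+ cDC2, 6 rose (the same 5 genes and Casp4), 1 fell (Il1a) and 3 were not called, where 6.83% of all genes rose and 8.91% fell. The median difference of the 10 genes was 0.38 for CD24+CD172a+ cDC2 over cDC1 and 0.81 for CD24-CD172a+ cDC2 over cDC1, against -0.03 and 0.00 over all genes. Between the cDC2 populations, 1 gene fell (Il18), 0 rose and 9 were not called in limma, where 0.652% of all genes fell and 0.808% rose. At an unadjusted p under 0.05, 5 of the 10 were lower and 1 was higher in CD24+CD172a+ than in CD24-CD172a+ cDC2, where 6.15% of all genes were lower and 7.89% higher. The median difference of the 10 was -0.25 there, against -0.01 over all genes.

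**Figure D1:**
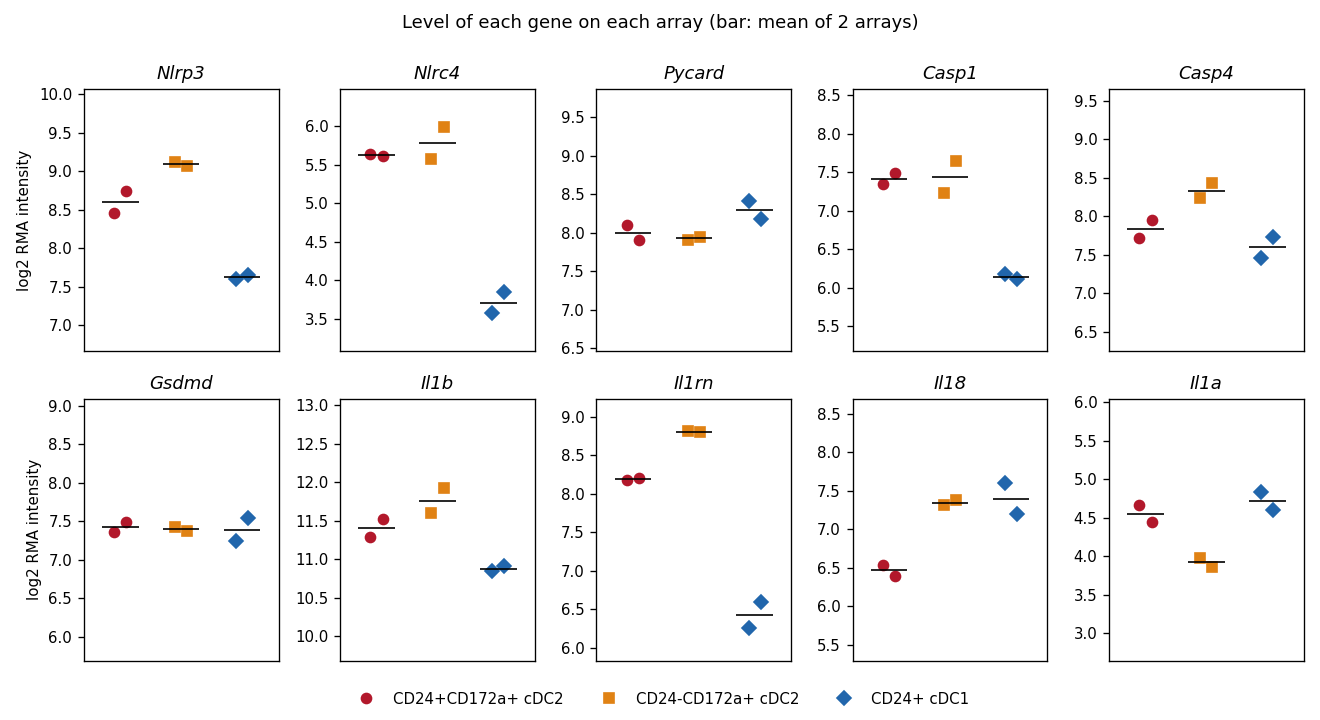
Log2 intensity of each of the 10 genes on each array, 1 panel a gene, with CD24+CD172a+ cDC2 at the left, CD24-CD172a+ cDC2 in the middle and CD24+ cDC1 at the right; points are arrays and short lines are means of 2. Il1rn, Nlrc4, Nlrp3 and Casp1 sit lowest in cDC1, Il18 sits lowest in CD24+CD172a+ cDC2, and Gsdmd sits at about 7.4 in all 3 populations.

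Among the sensors, Nlrp3, which responds to potassium loss and other signs of membrane damage, read 8.45 and 8.74 on the CD24+CD172a+ cDC2 arrays, 9.13 and 9.07 on the CD24-CD172a+ cDC2 arrays, and 7.60 and 7.66 on the cDC1 arrays. No array of one population overlapped those of another. In a single comparison, such separation held for 44.2% of all genes between the cDC2 populations. It held for 52.0% of genes between CD24+CD172a+ cDC2 and cDC1, and for 52.4% between CD24-CD172a+ cDC2 and cDC1. Against cDC1, Nlrp3 was 1.95-fold higher in CD24+CD172a+ cDC2 (0.97 ± 0.14, adjusted p = 0.000767 by limma). In CD24-CD172a+ cDC2 it was 2.76-fold higher than in cDC1 (1.47 ± 0.14, adjusted p = 3.76e-05). The difference of -0.50 ± 0.14 between the cDC2 populations was not called by limma (adjusted p = 0.128, interval -0.81 to -0.19).

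Nlrc4, the sensor that responds to bacterial flagellin and secretion system proteins through NAIP receptors, read 5.65 and 5.62 on the CD24+CD172a+ cDC2 arrays, 5.57 and 5.99 on the CD24-CD172a+ cDC2 arrays, and 3.57 and 3.84 on the cDC1 arrays. Both cDC2 populations lay well above cDC1 and overlapped each other. Its measured difference from cDC1 was 3.79-fold in CD24+CD172a+ cDC2 (1.92 ± 0.16, adjusted p = 1.72e-05 by limma) and 4.20-fold in CD24-CD172a+ cDC2 (2.07 ± 0.16, adjusted p = 9.87e-06). The mean of 3.71 in cDC1 lay at the 25th percentile of all probe sets, 3.72, where array background holds values up, so the true ratio may be larger. Nlrc4 differed between the cDC2 populations by -0.15 ± 0.16 (adjusted p = 0.744 by limma).

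Pycard, whose product ASC joins sensors to caspase 1, read 8.09 and 7.91 on the CD24+CD172a+ cDC2 arrays, 7.91 and 7.95 on the CD24-CD172a+ cDC2 arrays, and 8.42 and 8.18 on the cDC1 arrays. Its highest readings were those of cDC1, but no comparison was called. Against cDC1 it differed by -0.30 ± 0.14 in CD24+CD172a+ cDC2 (adjusted p = 0.228 by limma, interval -0.61 to 0.01) and by -0.37 ± 0.14 in CD24-CD172a+ cDC2 (adjusted p = 0.109, interval -0.68 to -0.06). The interval of its difference between the cDC2 populations ran from -0.23 to 0.38.

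Casp1, the protease that the complex activates, read 7.35 and 7.49 on the CD24+CD172a+ cDC2 arrays, 7.23 and 7.65 on the CD24-CD172a+ cDC2 arrays, and 6.18 and 6.11 on the cDC1 arrays. Both cDC2 populations lay above cDC1 by more than the spread of their arrays, and overlapped each other. The rise over cDC1 was 2.41-fold in CD24+CD172a+ cDC2 (1.27 ± 0.16, adjusted p = 0.00025 by limma) and 2.45-fold in CD24-CD172a+ cDC2 (1.29 ± 0.16, adjusted p = 0.00022). The difference between the cDC2 populations was -0.02 ± 0.16 (adjusted p = 0.969, interval -0.37 to 0.32).

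Casp4, which lies next to Casp1 on chromosome 9 with 0 genes in between in GRCm38.p6, read 7.72 and 7.96 on the CD24+CD172a+ cDC2 arrays, 8.23 and 8.43 on the CD24-CD172a+ cDC2 arrays, and 7.46 and 7.73 on the cDC1 arrays. CD24-CD172a+ cDC2 lay above the other populations, whose arrays interleaved. It was 1.67-fold higher in CD24-CD172a+ cDC2 than in cDC1 (0.74 ± 0.15, adjusted p = 0.00717 by limma). That call was lost without replicate 1 of cDC1 (0.60, adjusted p = 0.0754) and without replicate 2 of CD24-CD172a+ cDC2 (0.64, adjusted p = 0.0524). In CD24+CD172a+ cDC2 it differed from cDC1 by 0.24 ± 0.15 (adjusted p = 0.405 by limma, interval -0.10 to 0.58) and from CD24-CD172a+ cDC2 by -0.50 ± 0.15 (adjusted p = 0.164).

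Gsdmd, the pore-forming target of both caspases, read 7.36 and 7.49 on the CD24+CD172a+ cDC2 arrays, 7.42 and 7.37 on the CD24-CD172a+ cDC2 arrays, and 7.25 and 7.54 on the cDC1 arrays. Its arrays overlapped in all 3 populations. The intervals ran from -0.28 to 0.35 for CD24+CD172a+ cDC2 over cDC1, from -0.31 to 0.32 for CD24-CD172a+ cDC2 over cDC1, and from -0.28 to 0.34 between the cDC2 populations. None of these intervals reaches the difference of Casp1 between either cDC2 population and cDC1.

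**Figure D2:**
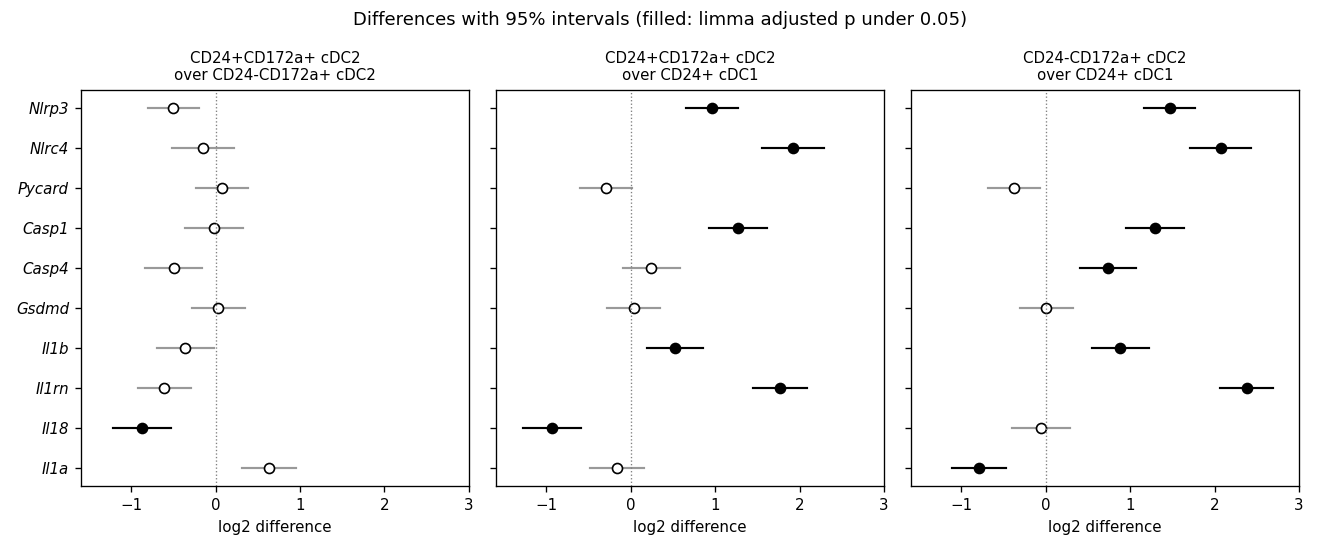
Log2 differences of the 10 genes (horizontal axis) in the 3 comparisons, with their 95% intervals; filled points were called by limma at an adjusted p under 0.05. Farthest to the right is Nlrc4, at 1.92, for CD24+CD172a+ cDC2 over cDC1 and Il1rn, at 2.38, for CD24-CD172a+ cDC2 over cDC1, and between the cDC2 populations only Il18 is filled, at -0.88.

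Of the cytokines, Il1b, which encodes the fever-inducing interleukin 1 beta and is made as an inactive precursor, read 11.28 and 11.52 on the CD24+CD172a+ cDC2 arrays, 11.60 and 11.92 on the CD24-CD172a+ cDC2 arrays, and 10.85 and 10.91 on the cDC1 arrays. Its arrays stepped up from cDC1 through CD24+CD172a+ to CD24-CD172a+ cDC2 without overlap. In a single comparison, the arrays of 44.2% to 52.4% of all genes lay apart. Il1b was 1.84-fold higher in CD24-CD172a+ cDC2 than in cDC1 (0.88 ± 0.15, adjusted p = 0.00235 by limma). The 1.44-fold rise in CD24+CD172a+ cDC2 over cDC1 was close to the threshold (0.52 ± 0.15, adjusted p = 0.0449). Leaving out either array of CD24+CD172a+ cDC2 or either array of cDC1 ended that call (0.40 to 0.64, adjusted p = 0.0726 to 0.267), as did testing every probe set (adjusted p = 0.0504). The cDC2 populations differed by -0.36 ± 0.15 (adjusted p = 0.321 by limma).

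Il1a encodes interleukin 1 alpha, which binds the same receptor and is active without cutting. It read 4.67 and 4.44 on the CD24+CD172a+ cDC2 arrays, 3.98 and 3.86 on the CD24-CD172a+ cDC2 arrays, and 4.83 and 4.59 on the cDC1 arrays. All of these lie below 4.91, the median of all probe sets, and whether they exceed array background was not examined. CD24-CD172a+ cDC2 had the lowest readings, 1.73-fold below cDC1 (-0.79 ± 0.14, adjusted p = 0.00354 by limma), where Il1b was higher. With an offset of 16 added to each intensity, that difference was -0.44 (adjusted p = 0.0138). CD24+CD172a+ cDC2 overlapped cDC1 (-0.16 ± 0.14, adjusted p = 0.607). The difference of 0.63 ± 0.14 between the cDC2 populations was not called (adjusted p = 0.0674 by limma) but passed with cyclic loess (adjusted p = 0.0485) and when replicate number entered the fit as a block (adjusted p = 0.0362).

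Il18, an inducer of interferon gamma in T and NK cells, read 6.54 and 6.39 on the CD24+CD172a+ cDC2 arrays, 7.31 and 7.37 on the CD24-CD172a+ cDC2 arrays, and 7.60 and 7.19 on the cDC1 arrays. CD24+CD172a+ cDC2 lay below both other populations, which overlapped each other. It was 1.90-fold lower in CD24+CD172a+ cDC2 than in cDC1 (-0.93 ± 0.15, adjusted p = 0.00207 by limma). In CD24+CD172a+ cDC2 it was 1.84-fold lower than in CD24-CD172a+ cDC2 (-0.88 ± 0.15, adjusted p = 0.0264), a call that ended in each of the 4 fits without 1 of the compared arrays (-0.95 to -0.80, adjusted p = 0.0921 to 0.200). CD24-CD172a+ cDC2 and cDC1 differed by -0.05 ± 0.15 (adjusted p = 0.892 by limma, interval -0.39 to 0.29).

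Some genes listed as markers of other cells moved with Il18 between the cDC2 populations. Of 14 monocyte and macrophage markers measured, 8 were lower and 0 higher in CD24+CD172a+ than in CD24-CD172a+ cDC2 by limma. Of all genes, 0.652% were lower and 0.808% higher there. Lyz1 and Lyz2, which encode near-identical lysozymes, were at -2.05 and -1.09, and Spic, a factor of red pulp macrophages, at -1.56. Of the 6 not called, Csf1r and Ccr2 ran the other way, at 0.17 and 0.22. Vcam1, Cd14 and Fcgr1 were at -0.46, -0.42 and -0.11. Mertk was dim, at 3.62 in CD24+CD172a+ and 3.69 in CD24-CD172a+ cDC2. The summed linear intensity of the 14 was 2646 and 2908 on the CD24+CD172a+ cDC2 arrays, 5101 and 5436 on the CD24-CD172a+ cDC2 arrays, and 5239 and 5030.2 on the cDC1 arrays. Lyz2, the brightest of the 14, weighs most in these sums, with log2 means of 10.20, 11.29 and 11.61 in that order. The sums therefore do not show the order of the other markers. Over all 3 populations only some of the 8 had the order of Il18. Adgre1 averaged 7.77 in CD24+CD172a+ cDC2, 8.89 in CD24-CD172a+ cDC2 and 4.17 in cDC1, and the complement genes C1qa, C1qb and C1qc were also lowest in cDC1. Treml4 averaged 5.54, 6.77 and 9.07 in the same order, Lyz1 averaged 7.12, 9.18 and 8.74, and Spic 6.73, 8.29 and 7.84. None of the 14 lay below the 25th percentile on all arrays. Against cDC1, 3 of the 14 rose and 5 fell in CD24+CD172a+ cDC2, where 7.11% of all genes rose and 6.52% fell. In CD24-CD172a+ cDC2 5 rose and 2 fell, where 6.83% of all genes rose and 8.91% fell. The part of these 14 markers in the differences of Il18 and of the other inflammasome and interleukin 1 genes was not tested.

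**Figure D3:**
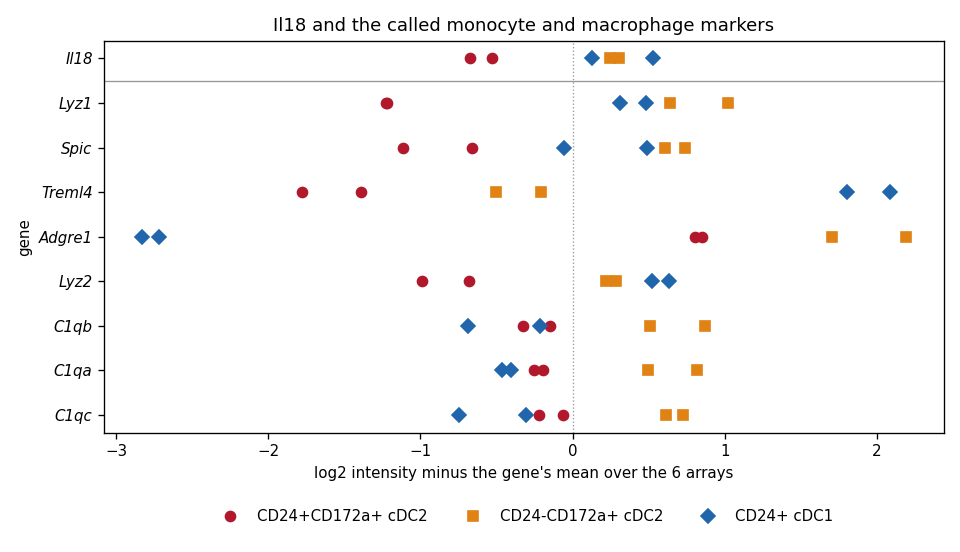
Log2 intensity minus the gene's mean over the 6 arrays (horizontal axis) for Il18 and for the 8 monocyte and macrophage markers called between the cDC2 populations; points are arrays. Il18, Lyz1, Lyz2, Spic and Treml4 are lowest in CD24+CD172a+ cDC2, with Treml4 far higher in cDC1 than in CD24-CD172a+ cDC2, whereas the means of Adgre1, C1qa, C1qb and C1qc are lowest in cDC1.

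Neutrophil markers had summed intensities of 421 and 374 on the CD24+CD172a+ cDC2 arrays, 293 and 307 on the CD24-CD172a+ cDC2 arrays, and 277 and 278 on the cDC1 arrays, over 13 genes. The calprotectin genes S100a8 and S100a9 were higher in CD24+CD172a+ than in CD24-CD172a+ cDC2, by 1.92 and 1.88. Mpo and Csf3r ran the other way without being called, at -0.56 and -0.46 (adjusted p = 0.161 and 0.138 by limma), and Ly6g, Cxcr2 and Mmp8 lay below the 25th percentile on all arrays. Neutrophils also express Il1b, and the part of these markers in its differences was not tested. Of 9 plasmacytoid dendritic cell markers, 4 were higher and 0 lower in CD24+CD172a+ than in CD24-CD172a+ cDC2 by limma. Of all genes, 0.808% were higher and 0.652% lower there. Against cDC1, 4 of the 9 rose and 2 fell in CD24+CD172a+ cDC2, where 7.11% of all genes rose and 6.52% fell. In CD24-CD172a+ cDC2 2 rose and 3 fell, where 6.83% of all genes rose and 8.91% fell. The part of these plasmacytoid markers in the differences of the 10 genes was not tested. Over these 9 markers the sums were 842 and 807 on the CD24+CD172a+ cDC2 arrays, 528 and 522 on the CD24-CD172a+ cDC2 arrays, and 668 and 654 on the cDC1 arrays. Over 7 B cell markers they ran from 240.4 to 247, from 223 to 234 and from 236 to 275 in the same order, and over 9 T and NK cell markers from 158 to 159, from 164 to 179.8 and from 166 to 171.

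Il1rn, which encodes the receptor antagonist that blocks interleukin 1 at its receptor, had the widest range of the 10 genes. It read 8.18 and 8.21 on the CD24+CD172a+ cDC2 arrays, 8.81 and 8.80 on the CD24-CD172a+ cDC2 arrays, and 6.26 and 6.59 on the cDC1 arrays. No array of one population overlapped those of another, where the arrays of 44.2% to 52.4% of all genes lay apart in a single comparison. Against cDC1 Il1rn was 3.41-fold higher in CD24+CD172a+ cDC2 (1.77 ± 0.14, adjusted p = 1.12e-05 by limma) and 5.21-fold higher in CD24-CD172a+ cDC2 (2.38 ± 0.14, adjusted p = 1.16e-06). The difference of -0.61 ± 0.14 between the cDC2 populations missed the threshold (adjusted p = 0.0721 by limma). It passed when only genes above the median were tested (adjusted p = 0.0391), with cyclic loess (adjusted p = 0.0486) and with an intensity trend and robust variance (adjusted p = 0.0316).

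Il1b and Il1rn were also set against each other within each array. The log2 reading of Il1b minus that of Il1rn was 3.10 and 3.31 on the CD24+CD172a+ cDC2 arrays, 2.79 and 3.13 on the CD24-CD172a+ cDC2 arrays, and 4.59 and 4.32 on the cDC1 arrays. The gap was smaller in both cDC2 populations than in cDC1, by -1.25 ± 0.20 and -1.50 ± 0.20 (SE). Between CD24+CD172a+ and CD24-CD172a+ cDC2 it differed by 0.25 ± 0.20, a value that ran from 0.08 without replicate 1 of CD24-CD172a+ cDC2 to 0.42 without replicate 2 and was 0.14 without replicate 2 of CD24+CD172a+ cDC2. The cytokine and its antagonist thus changed unequally between cDC2 and cDC1. Readings of different probe sets do not show which message is more abundant.

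The other genes of the pathway were taken from 5 lists, with 59 of 72 genes measured. Against cDC1, 12 of the 59 rose and 6 fell in CD24+CD172a+ cDC2, with a median difference of 0.08, and 13 rose and 7 fell in CD24-CD172a+ cDC2, with a median of 0.10. Between the cDC2 populations 1 rose and 0 fell by limma, with a median of -0.03, while 3 were higher and 8 lower at an unadjusted p under 0.05. The shares of all genes that passed each threshold are those given with the counts of the 10 genes.

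**Figure D4:**
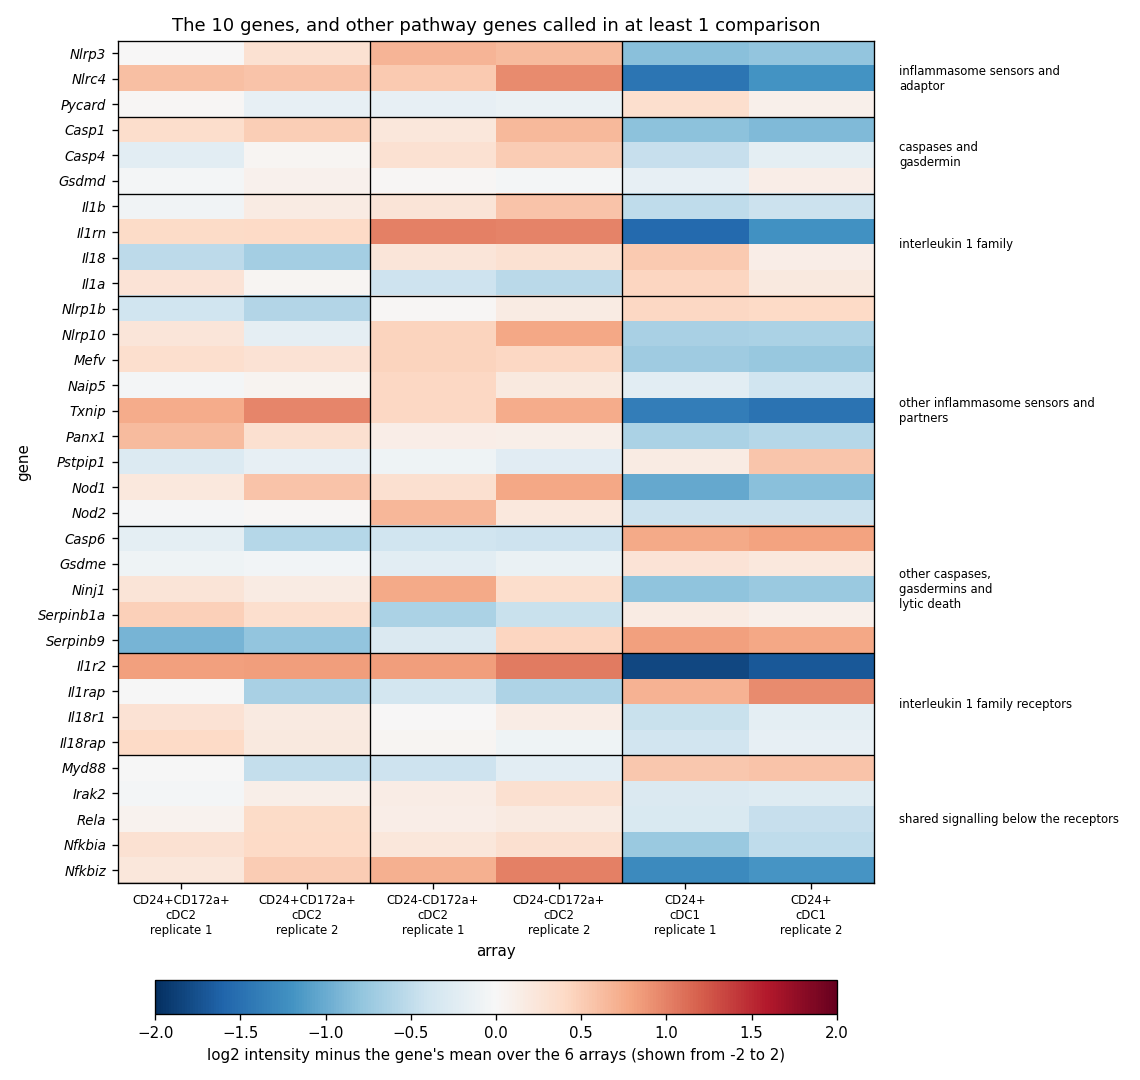
Log2 intensity minus the gene's mean over the 6 arrays, as colour from -2 to 2, for the 10 genes and the other pathway genes called in at least 1 comparison (rows, grouped by role) on each array (columns). Il1r2, Txnip and Nfkbiz are low in both cDC1 arrays, together with Nlrc4 and Il1rn, while Il1rap, Casp6 and Myd88 are high there.

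Among 18 other sensors and their partners, 5 rose and 2 fell in CD24+CD172a+ cDC2 over cDC1, and 7 rose and 1 fell in CD24-CD172a+ cDC2 over cDC1. Txnip, a thioredoxin inhibitor reported to bind NLRP3, read 8.13 and 8.36 on the CD24+CD172a+ cDC2 arrays, 7.79 and 8.12 on the CD24-CD172a+ cDC2 arrays, and 6.01 and 5.91 on the cDC1 arrays. It had the largest rise of the list in both comparisons with cDC1, at 2.28 ± 0.15 (adjusted p = 2.71e-06 by limma) and 2.0 ± 0.15 (adjusted p = 7.11e-06). Mefv, which encodes the sensor pyrin, rose by 1.04 ± 0.12 and 1.16 ± 0.12 (adjusted p = 0.000189 and 8.86e-05). Nod1, a sensor of bacterial cell wall fragments, rose by 1.33 ± 0.18 and 1.48 ± 0.18 (adjusted p = 0.00056 and 0.000247).
Panx1, a membrane channel for ATP, rose by 1.08 ± 0.14 in CD24+CD172a+ cDC2 (adjusted p = 0.000397 by limma), and Nlrp10 by 1.25 ± 0.17 in CD24-CD172a+ cDC2 (adjusted p = 0.000491). Panx1 also rose in CD24-CD172a+ cDC2 (adjusted p = 0.00492 by limma), and Nlrp10 in CD24+CD172a+ cDC2 (adjusted p = 0.0234). With an added offset, Nlrp10 was not called in CD24+CD172a+ cDC2 (0.37, adjusted p = 0.0824 by limma). Nlrp10 also lost that call without replicate 1 of cDC1 (0.67), replicate 2 of cDC1 (0.67) or replicate 1 of CD24+CD172a+ cDC2 (0.46). Its mean of 3.92 in cDC1 lay close to the 25th percentile of all probe sets, 3.72. The genes of this list that fell, singled out after their values were seen, were Nlrp1b in CD24+CD172a+ cDC2 (-0.89 ± 0.13, adjusted p = 0.00103) and Pstpip1, which encodes a partner of pyrin, in both cDC2 populations (-0.58 and -0.51, adjusted p = 0.0307 and 0.0475). Pstpip1 lost its call in CD24+CD172a+ cDC2 without either array of that population or replicate 2 of cDC1 (adjusted p = 0.0977 to 0.240). In CD24-CD172a+ cDC2 it lost it without replicate 2 of cDC1 or either array of CD24-CD172a+ cDC2 (-0.58 to -0.32). Without either array of CD24+CD172a+ cDC2 that call was lost too (-0.51). It was also lost with every probe set tested, quantile normalisation again, cyclic loess or array weights (adjusted p = 0.0533 to 0.121 by limma). A fit of only the 2 groups compared ended it as well (adjusted p = 0.0743 by limma). Nlrp1a and Nlrp1b are close copies, as are the Naip genes, so their probe sets may share signal. In the comparison of the cDC2 populations 0 of the 18 passed (1 was higher and 3 were lower at an unadjusted p under 0.05, against 7.89% and 6.15% of all genes). The smallest p values there belonged to Nlrp1b (-0.58, adjusted p = 0.0678 by limma) and Nlrp10 (-0.58, adjusted p = 0.146).

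Among 13 other caspases, gasdermins and genes of lytic death, 1 rose and 2 fell in CD24+CD172a+ cDC2 over cDC1, and 1 rose and 4 fell in CD24-CD172a+ cDC2 over cDC1. Ninj1, needed for the rupture of the membrane in dying cells, rose by 0.98 ± 0.15 and 1.33 ± 0.15 (adjusted p = 0.00142 and 0.000163 by limma). Casp6, an executioner caspase, fell by 1.16 ± 0.15 and 1.18 ± 0.15 (adjusted p = 0.000323 and 0.000273). Serpinb9, an inhibitor of granzyme B, fell by 1.66 ± 0.20 and 0.72 ± 0.20 (adjusted p = 0.000273 and 0.0369). The second of these calls was lost in 5 of the 6 fits that leave out 1 array, all but that without replicate 2 of CD24-CD172a+ cDC2 (adjusted p = 0.0658 to 0.209), and without replicate 1 of that population the difference was -0.36. Quantile normalisation again, cyclic loess, an added offset and a fit of only the 2 groups compared also ended it (adjusted p = 0.0509 to 0.0699).
Serpinb1a, an inhibitor of neutrophil proteases that also restrains inflammatory caspases, was the 1 other pathway gene called between the cDC2 populations. It read 6.52 and 6.38 on the CD24+CD172a+ cDC2 arrays, 5.41 and 5.60 on the CD24-CD172a+ cDC2 arrays, and 6.20 and 6.15 on the cDC1 arrays. The rise over CD24-CD172a+ cDC2 was 0.95 ± 0.13 (adjusted p = 0.00973 by limma), and it was lost without either array of CD24+CD172a+ cDC2 or replicate 1 of CD24-CD172a+ cDC2 (adjusted p = 0.0595 to 0.116). It fell by 0.67 ± 0.13 in CD24-CD172a+ cDC2 against cDC1 (adjusted p = 0.0056).

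The 8 receptors of the family with a reading, of 10 listed, held the largest difference of all the pathway genes measured against cDC1. Il1r2, a decoy receptor that binds interleukin 1 without passing on a signal, read 12.13 and 12.14 on the CD24+CD172a+ cDC2 arrays, 12.13 and 12.33 on the CD24-CD172a+ cDC2 arrays, and 9.47 and 9.60 on the cDC1 arrays. It was 6.03-fold higher in CD24+CD172a+ cDC2 than in cDC1 (2.59 ± 0.13, adjusted p = 4.12e-07 by limma) and 6.47-fold higher in CD24-CD172a+ cDC2 (2.69 ± 0.13, adjusted p = 2.91e-07). The antagonist and the decoy receptor were thus both higher in cDC2, together with Il1b. Il1r1, which encodes the signalling receptor, is not among the 8 with a reading, so its level was not compared. Il1r2 differed between the cDC2 populations by -0.10 ± 0.13 (adjusted p = 0.789).
Il1rap, the accessory chain that a signalling receptor needs, read 5.28 and 4.64 on the CD24+CD172a+ cDC2 arrays, 4.93 and 4.67 on the CD24-CD172a+ cDC2 arrays, and 5.99 and 6.24 on the cDC1 arrays. Unlike Il1r2, it was lowest in cDC2, by -1.15 ± 0.20 and -1.31 ± 0.20 (adjusted p = 0.00294 and 0.00118 by limma). The receptor chains of interleukin 18, Il18r1 and Il18rap, were dim in all populations, at 3.42 to 4.56. They rose by 0.56 ± 0.14 and 0.57 ± 0.14 in CD24+CD172a+ cDC2 over cDC1 (adjusted p = 0.0228 and 0.021), in the population where Il18 itself was lower. Both calls were lost without replicate 1 of cDC1 or replicate 1 of CD24+CD172a+ cDC2, and that of Il18r1 also without replicate 2 of CD24+CD172a+ cDC2 (adjusted p = 0.076 to 0.188 over these fits) and with an added offset (adjusted p = 0.0603). None of the 8 was called between the cDC2 populations (1 was higher at an unadjusted p under 0.05), with Il18rap at 0.33 (adjusted p = 0.337 by limma) and Il1rapl2 at -0.18 (adjusted p = 0.61). Il1rapl2 averaged below the 25th percentile of all probe sets, 3.72, in all 3 populations.

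Of 7 other ligands and binding proteins, 0 were called by limma in any comparison, while 1 was lower in CD24+CD172a+ than in CD24-CD172a+ cDC2 and 1 was higher in CD24-CD172a+ cDC2 than in cDC1 at an unadjusted p under 0.05. Of all genes, 12% were higher and 11.7% lower at that threshold for CD24+CD172a+ cDC2 over cDC1, and 11.7% were higher and 14.7% lower for CD24-CD172a+ cDC2 over cDC1. Il18bp, which captures free interleukin 18, differed by 0.18 for CD24+CD172a+ cDC2 over cDC1 and by 0.19 for CD24-CD172a+ cDC2 over cDC1 (adjusted p = 0.512 and 0.45). Il1f8, now named Il36b, differed by -0.40 between the cDC2 populations and by 0.39 between CD24-CD172a+ cDC2 and cDC1 (adjusted p = 0.19 and 0.0727). It averaged 2.42 in CD24+CD172a+ cDC2, 2.82 in CD24-CD172a+ cDC2 and 2.43 in cDC1. These means all lie below 3.72, the 25th percentile of all probe sets. Il1f10 differed by 0.19 between the cDC2 populations and by 0.22 between CD24+CD172a+ cDC2 and cDC1 (adjusted p = 0.653 and 0.488).

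Below the receptors, 13 signalling genes shared by the interleukin 1 and Toll-like receptors were measured. In CD24+CD172a+ cDC2 3 rose and 1 fell against cDC1, and in CD24-CD172a+ cDC2 4 rose and 1 fell. Nfkbiz, an NF-kappaB cofactor induced by interleukin 1, read 8.55 and 8.83 on the CD24+CD172a+ cDC2 arrays, 9.04 and 9.34 on the CD24-CD172a+ cDC2 arrays, and 7.06 and 7.16 on the cDC1 arrays. It rose by 1.58 ± 0.15 and 2.08 ± 0.15 over cDC1 (adjusted p = 4.26e-05 and 5.28e-06 by limma). Nfkbia, the inhibitor that NF-kappaB itself induces, rose by 0.97 ± 0.14 and 0.90 ± 0.14 (adjusted p = 0.000638 and 0.00107).
Myd88, the adaptor of these receptors, fell by 0.80 ± 0.17 and 0.87 ± 0.17 (adjusted p = 0.00822 and 0.00463 by limma), the call in CD24+CD172a+ cDC2 being lost without replicate 2 of cDC1 or replicate 2 of CD24+CD172a+ cDC2 (adjusted p = 0.0518 and 0.0822). Rela, an NF-kappaB subunit, rose by 0.61 and 0.54 (adjusted p = 0.0182 and 0.0301). In CD24+CD172a+ cDC2 that call was lost without replicate 2 of cDC1 or replicate 2 of CD24+CD172a+ cDC2 (adjusted p = 0.128 and 0.154), and in CD24-CD172a+ cDC2 it was lost without any 1 of the 4 compared arrays (adjusted p = 0.0721 to 0.173). Between the cDC2 populations 0 of the 13 were called (1 was lower at an unadjusted p under 0.05), with Nfkbiz at -0.50 (adjusted p = 0.165 by limma) and Tab1 at -0.35 (adjusted p = 0.366).

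The genes most like the 3 with the widest ranges were sought among 9587 genes above the median, by the distance between log2 readings centred on each gene's mean over the 6 arrays. Nearest to Il1rn were Pram1 at 0.12, B4galt6 at 0.26 and Klrb1f at 0.29. Nearest to Nlrc4 were Atrnl1 at 0.36, Tctex1d2 at 0.37 and Plxnd1 at 0.38. Nearest to Nlrp3 were Ndrg1 at 0.16, Hpgd at 0.17 and Nsun4 at 0.20. Pram1, an adaptor of myeloid cells, averaged 6.86 in CD24+CD172a+ cDC2, 7.56 in CD24-CD172a+ cDC2 and 5.07 in cDC1, in the same order as Il1rn. With 3 populations of 2 arrays, many genes can take the same order, so nearness is a description of these arrays.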

How the data were processed

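Expression was measured on 6 Affymetrix arrays of sorted splenic dendritic cells, 2 a population. The authors deposited linear RMA intensities, made in Affymetrix Expression Console per the submitters' processing notes; versions and a genome build are not given in the sources used here. RMA corrects background, quantile-normalises arrays and summarises probe sets, so no value is 0 and dim genes are compressed. Scanner files were not used here.

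Symbols came from GEO's platform annotation. Of 28853 probe sets, 21789 had 1 symbol, 1621 had several and 5443 had none; only the first were used, with the brightest probe set kept for 999 genes with several, which left 19938 genes and no filter. A log2 of the deposited intensity was tested with limma 3.58.1 under R 4.3.3 (a linear model of group with eBayes, all 6 arrays in 1 fit, 3 residual and 7.31 prior degrees of freedom), with Benjamini-Hochberg adjustment over all genes at 0.05. The script was tested on simulated data.

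The genes and lists were chosen with earlier results of these data known. Named were the 10 genes, up to 4 called genes per list and comparison by size (or the 2 with the smallest p), marker genes told beside a result, and the 3 nearest genes of the 3 with the widest ranges. Alternatives were filters on dim genes, probe set rules, an offset of 16, other normalisations, variance settings, only the groups compared, leaving out each array, and a block on the replicate number. Promoter windows are RefSeq's, in GRCm38.p6. Figures used Python 3.11.15 and matplotlib 3.10.9.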

Additional observations from a re-analysis of the deposited data

How the results depend on the processing

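None of the called differences of the 10 genes changed direction under any alternative run. Of their values, called or not, 521 kept their side of the threshold, 11 lost a call and 5 gained one; 16 values of 7 differences that were not called changed sign (Nlrc4, Pycard, Casp1, Gsdmd and Il18). Between the cDC2 populations calls were least stable. Against 291 genes called there, 437 were called among genes above the median, 464 with an intensity trend and robust variance, 187 with only the groups compared, and 20 to 187 with 1 array left out. Cyclic loess gave 126 higher and 160 lower, against 161 and 130. Of the 10 genes and the other pathway genes, 2 were called there, against 5 among genes above the median, 5 with cyclic loess, 4 with an intensity trend and robust variance, and 0 to 2 with 1 array left out. With 1 array left out, 1781 to 2769 genes were called in CD24+CD172a+ cDC2 over cDC1 (2718 with all), and 1922 to 2839 in CD24-CD172a+ cDC2 over cDC1 (3137 with all); the 10 genes and the pathway genes gave 19 to 24 (24 with all) and 21 to 24 (27 with all). The within-array difference of Il1b and Il1rn kept its sign, at 0.08 to 0.42 between the cDC2 populations with 1 array left out. The causes of these shifts were not tested. The fits without 1 array or without dim genes also hold fewer arrays or genes. The replicate numbers are shared in the labels, which do not say if same-numbered arrays belong together. Deviations from the group means correlated at 0.08, 0.08 and 0.02 between same-numbered arrays. A weak correlation over all genes cannot decide whether the samples are paired. With the number as a block, 411 genes were called between the cDC2 populations (291 without it). In CD24+CD172a+ cDC2 over cDC1 2918 were called (2718 without it), and in CD24-CD172a+ cDC2 over cDC1 3323 (3137 without it). Of the 10 genes and the other pathway genes, 4 were called between the cDC2 populations in that fit, Il1a and Serpinb9 being added. The small number of arrays limits precision, and folds of dim genes such as Il1a, Nlrc4 in cDC1 and the interleukin 18 receptor chains may be understated.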

Other observations

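Il18 was singled out after its values were seen, and the genes nearest to it over the 6 arrays were Slc11a2 at a distance of 0.29, Depdc7 at 0.32 and Ifi207 at 0.34. Slc11a2, an iron transporter, averaged 5.33 in CD24+CD172a+ cDC2, 6.34 in CD24-CD172a+ cDC2 and 6.29 in cDC1. Ifi207, a member of the interferon-inducible family that also holds Aim2, averaged 9.30 in CD24+CD172a+ cDC2, 10.27 in CD24-CD172a+ cDC2 and 10.10 in cDC1. The genes nearest to Il1a, also chosen after seeing the values, were Shmt2 at 0.14, Lsm1 at 0.17 and Lsm7 at 0.19. Shmt2, an enzyme of mitochondrial one-carbon metabolism, averaged 5.98 in CD24+CD172a+ cDC2, 5.37 in CD24-CD172a+ cDC2 and 6.06 in cDC1. Nearest to Casp1 were Tnfsf9 at 0.17, Stk17b at 0.19 and Zbtb25 at 0.21, and nearest to Casp4 was Cited2 at 0.08. These distances cover the same 6 arrays that gave the differences, and were not tested.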
